A study of Mus musculus with 2 samples.

Results

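Thick ascending limb (TAL) cells of the sodium reabsorbing type were described in 2 single-cell RNA libraries of injured mouse kidney. A member was a cell with at least 5 unique molecular identifiers (UMIs, each standing for 1 captured transcript) of Slc12a1, more UMIs of Slc12a1 than of Slc12a3, at least 1 of Cldn10, none of Cldn16 and none of the leukocyte gene Ptprc. The rule found 560 members among 19478 retained cells, which are barcodes with 500 or more UMIs over 200 or more genes, of which mitochondrial transcripts took no more than 50%. Members were thus chosen by their measured counts of 5 genes, whose values are given as a description only. Of these, 344 were in the control library and 216 in the haplodeficient library. The control mice were Cre-. The haplodeficient mice were Cdh5-CreERT2;Phd3f/+, in which the Cdh5 promoter drives a tamoxifen-inducible Cre in endothelial cells and 1 allele of Phd3 (gene symbol Egln3), an oxygen-sensing prolyl hydroxylase, is floxed. Both had unilateral renal ischaemia-reperfusion injury and 4 tamoxifen injections, and the injured kidney was taken at day 14. Each group was 1 library, both of batch 1. The number of animals per library, their age and whether the Cre- mice carried the floxed allele were not given in the sources used here. With 1 library per group there is no replicate, so no test compares the libraries, and every interval on a library value covers counting error only.

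The thick ascending limb takes up sodium, potassium and chloride from the urine through the cotransporter NKCC2, encoded by Slc12a1, and is impermeable to water. The positive voltage that this leaves in the lumen drives cations between the cells. Cldn10 encodes a tight-junction claudin whose form in this segment lets sodium through, whereas Cldn16 together with Cldn19 lets calcium and magnesium through, and in mouse kidney the sodium type and the divalent-cation type of cell lie side by side in a mosaic.

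The share of cells that met the rule was 3.64% (exact binomial 95% interval 3.27% to 4.04%) in the control library and 2.15% (1.88% to 2.46%) in the haplodeficient library. All Slc12a1-positive TAL cells together made up 9.43% and 9.44% of cells, 891 and 946 cells. The members were therefore 38.6% of TAL cells in the control library and 22.8% in the haplodeficient library. Cells positive for both claudins numbered 409 and 586, cells with Cldn16 alone 86 and 92, and cells with neither 52 and 52.

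A count of 0 for Cldn16 depends on how deeply a cell was read. Members had a median of 10707 UMIs in the control library and 7151 in the haplodeficient library, against 17856 and 21447 in cells with both claudins. Among TAL cells with under 5000 UMIs, the members' share was 45.5% in the control library and 44.6% in the haplodeficient library. Among those with 20000 UMIs or more it was 22.5% and 6.41%. Cells with at least 2000 UMIs, 8400 and 8563, were also thinned to 2000 UMIs before the rule was applied, and shallower cells were left out. Of these cells 4.55% and 4.86% were then members, against 4.02% and 2.42% without thinning. When Cldn10 had only to exceed Cldn16, 7.58% and 7.70% of all retained cells were members. The differences, haplodeficient minus control, were then 0.31 (-0.34 to 0.96) and 0.12 (-0.63 to 0.88) percentage points, with intervals that include 0. A smaller population of sodium-type cells in the haplodeficient library was thus not shown, nor was a larger one.

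**Figure D1:**
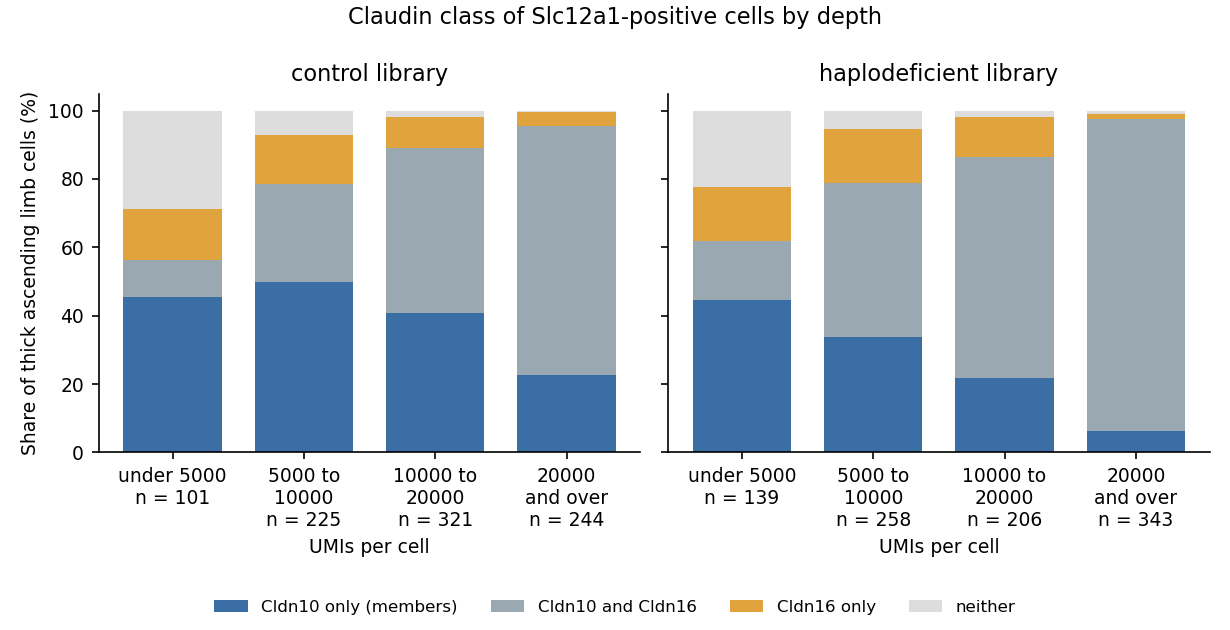
Shares of Slc12a1-positive TAL cells (vertical axis, %) by claudin class in 4 bins of UMIs per cell, one panel per library, with the number of cells under each bar. The members (blue) take 45.5% and 44.6% of the shallowest bin and 22.5% and 6.41% of the deepest, where most cells carry both claudins.

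Few members stood at the Slc12a1 and Cldn10 limits of the rule, but many cells lay just outside the limit for Cldn16. With exactly 5 UMIs of Slc12a1 there were 7 members in the control library and 5 in the haplodeficient library, while 12 and 4 cells with 4 UMIs fell just outside. Cldn10 was at 1 UMI in 26 and 14 members. The rule excluded 170 and 144 cells for a single UMI of Cldn16, and 33 and 33 for a UMI of Ptprc. The Slc12a1 count ran from 5 to 311 per cell with a median of 45 in the control library, and from 5 to 245 with a median of 25.5 in the haplodeficient library. No barcode was shared by members of the libraries.

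Markers of the segment that the rule did not use were present. Umod, which encodes uromodulin, the most abundant protein of normal urine, had at least 1 UMI in 342 of 344 control members and 212 of 216 haplodeficient members. Thinned to 2000 UMIs, 96.7% and 92.8% of members carried it, against 10.5% of control leukocytes, where it is background RNA (median depths 10707 UMIs in the control members, 7151 in the haplodeficient members and 5560 in these leukocytes). Kcnj1, the apical potassium channel ROMK, was seen in 285 and 163 members.

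Some members carried markers of other cell types. Marker genes of other classes took over 0.3% of UMIs in 69 control members and 25 haplodeficient members, called mixed-marker cells here, and a doublet caller marked 63 and 22. The 15 proximal tubule markers summed to 3544 CPM (counts scaled to 1000000 UMIs) in control members and 767 in haplodeficient members, with all 15 detected in both, and 133 and 11 members carried 2 or more of these genes. The 8 endothelial markers summed to 85.7 and 243.6 CPM, the 8 of fibroblasts and pericytes to 71.6 and 181 CPM with Pdgfra and Dcn at 0 in the haplodeficient members, and the 12 of leukocytes to 73.5 and 168 CPM with Ptprc, by the rule, and Cd3e at 0. The 8 markers of principal cells of the collecting duct summed to 175 and 367 CPM, all 8 detected in both libraries. The 2 eligible ones were called higher, Hsd11b2 at 71.6 and 160 CPM (log2 ratio, defined below, 1.10; 2.07 without mixed-marker cells) and Fxyd4 at 49.96 and 152 CPM (1.51; 2.77). Their part in the differences below was not tested. In members other than mixed-marker cells, free RNA made up an estimated 3.10% and 2.43% of UMIs. Those members were kept for a low level of the same markers that the estimate uses, so the selection itself limits these values. Over all members the same estimate, which rests on the level of other classes' markers and so includes that of mixed-marker cells, was 23.8% and 43.6%. Values without the mixed-marker cells are given for some named genes, not for all whose call they may end.

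The libraries were compared on UMIs summed over members (control 4583965, haplodeficient 2237194), as the log2 ratio of CPM + 5. Positive values mean a higher level in the haplodeficient library. A gene was called different when the ratio reached 1 in size and the exact Poisson 95% intervals of the libraries did not overlap. Of 3453 genes with a mean of at least 50 CPM, 62 (1.8%) were called higher and 62 (1.8%) lower, and the median log2 ratio over all of them was 0.14. Mitochondrial transcripts took a median of 17.9% of UMIs in control members and 5.82% in haplodeficient members, and 10.2% and 2.72% in all retained cells. On CPM computed over nuclear genes alone, which lowers every log2 ratio by about 0.18, 42 genes were called higher and 108 lower, and with median-of-ratios scaling 42 and 82. In the text the CPM of all genes is used, and ratios are read against the median of 0.14.

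The main salt entry and exit genes had similar levels in both libraries. Slc12a1, the gene of the rule, stood at 4418 CPM in control members and 3819.5 CPM in haplodeficient members. Kcnj1, which recycles potassium to the lumen for the cotransporter, stood at 225 and 205 CPM (log2 ratio -0.13). Atp1b1, the beta subunit of the sodium pump, stood at 2229.7 and 1628 CPM (log2 ratio -0.45), while the pump regulator Fxyd2 stood at 3392 and 4538 CPM (0.42). None of these 4 genes reached the limit of 1.

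Slc9a3 was the exception among the apical genes. It encodes the sodium-proton exchanger NHE3, which reabsorbs bicarbonate and sodium in this segment and in the proximal tubule. Its level was 225 CPM (212 to 239) in the control members and 29.5 CPM (22.8 to 37.5) in the haplodeficient members, a log2 ratio of -2.74. Thinned to 2000 UMIs, 26.9% of control members and 4.83% of haplodeficient members carried it, against 0.996% of control leukocytes. Without mixed-marker cells the log2 ratio was -3.00.

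The 6 eligible basolateral genes had a list median of -0.22. Bsnd, which encodes barttin, a subunit of chloride channels in kidney and inner ear, was at 39.3 and 25.5 CPM, under the minimum level for a call. Kcnj16, a basolateral potassium channel subunit, was at 321 and 291 CPM (log2 ratio -0.14).

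Of the 9 eligible paracellular genes outside the rule 7 had a ratio above 0, with a median of 0.25, against 62.7% of all eligible genes outside the rule and a median of 0.14. Cldn10 itself, which the rule used, stood at 749 CPM in the control and 1417 CPM in the haplodeficient members. Cldn3, a claudin that limits the passage of ions, stood at 129 CPM (119 to 140.0) and 346 CPM (322 to 372), a log2 ratio of 1.39, and was the only gene of these past the limit. Thinned to equal depth, it was seen in 21.0% and 43.5% of members. Cldn7 fell just short at 259.6 and 516 CPM (0.98), and passed at 1.02 without mixed-marker cells. Cldn19, the partner of Cldn16, was at 155 and 130.1 CPM (-0.24).

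**Figure D2:**
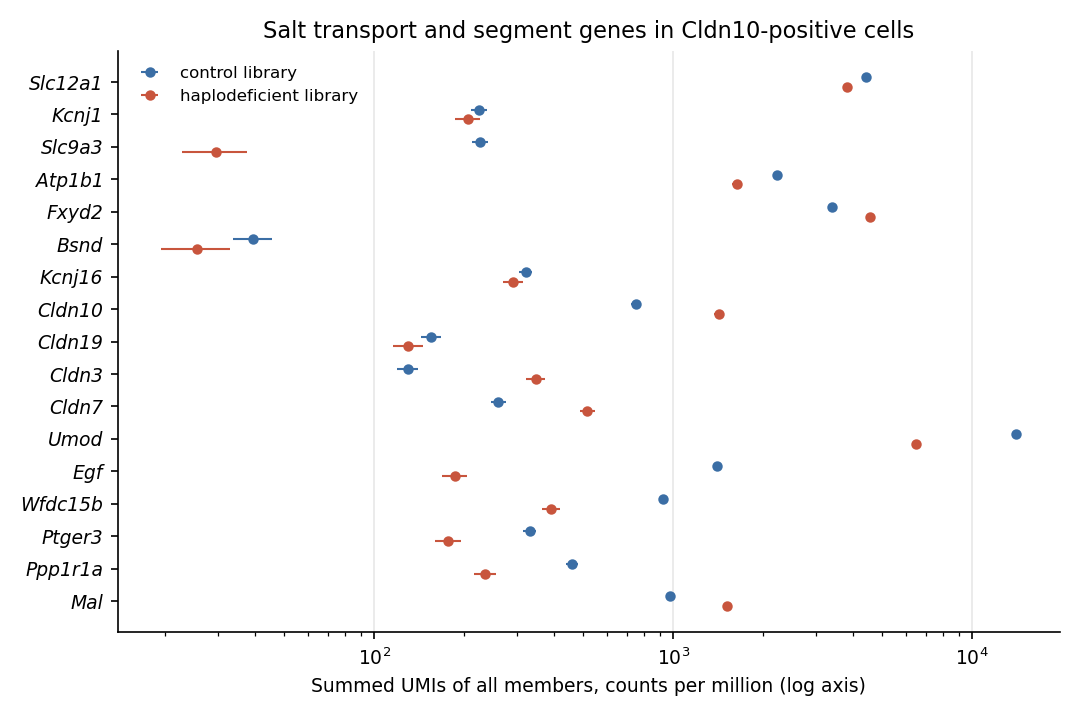
Level of 17 salt transport and segment genes in members, in CPM of summed UMIs on a log axis, with exact Poisson 95% intervals (1 library per group, counting error only). Blue and red points nearly coincide for Slc12a1, Kcnj1 and Kcnj16 and lie far apart for Slc9a3 (225 and 29.5 CPM) and Egf (1406 and 185.5 CPM).

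Egf and Umod, both released into the urine, were lower in the haplodeficient library, whereas the secreted proteins Clu and Lcn2, given below, were on the higher side. Egf, the precursor of epidermal growth factor, which the distal nephron releases into urine, was at 1406 CPM (1371 to 1440.3) in control members and 185.5 CPM (168 to 204) in haplodeficient members, a log2 ratio of -2.89. At equal depth 45.6% and 16.9% of members carried it, against 2.54% of control leukocytes, and 1 cell held 19.3% of the haplodeficient UMIs. Umod was at 14000.1 and 6505 CPM (log2 ratio -1.11). In thinned cells its median was 27 UMIs, with a 10th to 90th percentile of 5 to 63.3, in the control library, and 12 UMIs, with 1 to 32.4, in the haplodeficient library, so the cells of the libraries overlapped widely.

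Other genes of TAL identity divided. Of 13 eligible genes on this list, 4 were called lower and none higher. Among the lower genes were Umod, Egf and Wfdc15b, a secreted protease-inhibitor-like protein at 921 and 391 CPM (-1.23). When Cldn10 had only to exceed Cldn16, Umod was at -0.70 and Wfdc15b at -0.66, and of these 3 genes only Egf was still past the limit. The list median was -0.24, but -0.88 over the 11 genes that the rule did not use and -0.54 over the 15 genes of the list with at least 10 CPM. Ptger3, the receptor through which prostaglandin E2 restrains salt uptake, was at 330.5 and 177 CPM (-0.88). Ppp1r1a, an inhibitor of protein phosphatase 1, was at 459 and 235 CPM (-0.95). Mal, a membrane-trafficking proteolipid, was at 976 and 1516 CPM (0.63). Tmem207 was listed at 85 UMIs in 32 control members and 2 UMIs in 1 haplodeficient member, below the minimum level for a call.

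Regulators of the transporter showed few calls. Of 11 eligible kinase and trafficking genes the only call was Umod, which is also on this list. Stk39, the kinase SPAK that phosphorylates the cotransporter, was at 255 and 189 CPM (log2 ratio -0.43), and its activator Wnk1 at 164 and 109.5 CPM (-0.56). None of 8 eligible hormone and calcium receptors was called. Casr, the calcium-sensing receptor, was at 106 and 88.1 CPM (-0.25), and Pth1r, the parathyroid hormone receptor, at 145 and 158 CPM (0.12).

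Of 15 eligible segment transcription factors, 2 were called lower, and the list median was -0.07. Ppargc1a, a coactivator of mitochondrial biogenesis, was at 380.5 and 148 CPM (log2 ratio -1.34). Esrrg, a nuclear receptor that works with it on oxidative genes, was at 1171 and 559 CPM (-1.06). With Cldn10 only above Cldn16, Esrrg was still past the limit and Ppargc1a, at -0.89, was not. Its relative Esrrb was at 70.9 and 13.0 CPM (-2.08), under the minimum level in the mean of all members. In the osmotic list Slc5a3, the myo-inositol importer induced by hypertonicity, was at 413 and 160 CPM (-1.35), whereas the chaperone Hspb1 was at 196 and 462 CPM (1.21). In the calcium and magnesium list S100g, an intracellular calcium carrier, was at 312 and 712 CPM (1.18), with 21.8% and 17.2% of its UMIs in a single cell of each library. With Cldn10 only above Cldn16, Hspb1 was at 0.86 and S100g at 0.89, both short of the limit.

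Some interferon-stimulated and MHC class I genes were higher in the haplodeficient members. Of 6 eligible interferon-stimulated genes 4 were called higher and none lower, with a list median of 1.30. Ifitm3, which blocks virus entry at membranes, was at 70.9 CPM (63.4 to 79.0) in control members and 362 CPM (337 to 387) in haplodeficient members, a log2 ratio of 2.27. Thinned to equal depth, 6.80% and 24.2% of members carried it. Isg15, a ubiquitin-like modifier, was at 32.1 and 114 CPM (1.68), Bst2, the virus tether tetherin, at 55.2 and 155 CPM (1.41), and Ifi27 at 154 and 358 CPM (1.19). The intervals of the libraries did not overlap for any of these 4 genes. Irf1, an interferon-induced transcription factor, was at 128 and 107 CPM (-0.25). The remaining 32 genes of this list in the files were too low to be eligible, and over the 31 genes that reached a minimum of 10 CPM the list median was 0.68.

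Of 9 eligible MHC class I genes 4 were called higher and none lower, with a list median of 0.91 and a lowest ratio of -0.23. The heavy chain H2-D1 was at 253 and 581 CPM (log2 ratio 1.18) and the light chain B2m at 171 and 351 CPM (1.02). The immunoproteasome subunit Psmb8 was at 43.4 and 125 CPM (1.43), and the proteasome activator Psme2 at 56.9 and 139 CPM (1.22). Leukocytes express all of these genes: Ifitm3 was seen in 54.6% of thinned control leukocytes. Without mixed-marker cells the log2 ratios were 1.68 for Ifitm3, 1.19 for Isg15, 1.09 for Bst2 and 1.13 for Psmb8, and B2m, at 0.95, no longer passed. On nuclear CPM, B2m was at 0.84.

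Promoters are shown for the called genes of both lists whose 250 bases before the start held GAAANNGAAA, the core letters of the interferon-stimulated response element, on either strand. Windows were taken from the RefSeq promoter table on GRCm38.p6, which held 3 of the 4 called interferon-stimulated genes and all 4 called MHC class I genes. Counted by gene, the letters were in 936 of 27025 genes (3.46%), in 2 of the 3 and in 1 of the 4. Counted by promoter, they were in 978 of 32851 (2.98%), in 2 of 3 and in 1 of 5. The windows below are 100 bases each, 5′ to 3′ on the gene's strand, at chr4:156200842-156200941 (minus strand), chr8:71537548-71537647 (minus strand) and chr2:122147503-122147602 (plus strand), with capitals marking every match; in Isg15, 3 matches overlap, and in Bst2, 2.
Isg15: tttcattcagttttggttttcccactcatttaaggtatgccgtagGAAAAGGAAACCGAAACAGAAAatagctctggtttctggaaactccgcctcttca
Bst2: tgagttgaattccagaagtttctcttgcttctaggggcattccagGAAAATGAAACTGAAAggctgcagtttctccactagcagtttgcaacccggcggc
B2m: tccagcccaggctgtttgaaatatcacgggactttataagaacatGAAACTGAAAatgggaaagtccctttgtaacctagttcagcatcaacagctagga
The first match began 78 bases before the start of Isg15, 130 before that of Bst2 and 139 before that of B2m. No binding was measured here.

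Some genes of tubular injury were also higher. Of 23 eligible genes 4 were called higher and none lower, 20 (87.0%, against 62.7% of all eligible genes outside the rule) had a ratio above 0, and the list median was 0.67. Over the 31 genes of the list with at least 10 CPM it was 0.30. S100a6, a calcium-binding protein of injured and migrating epithelium, was at 673 and 1579 CPM (log2 ratio 1.22), and Tnfrsf12a, the TWEAK receptor, at 51.7 and 117 CPM (1.10). Clu, the secreted chaperone clusterin, was at 1047 and 2112 CPM (1.01), with 17.6% of the haplodeficient UMIs in 1 cell, and Krt19 at 99.9 and 205 CPM (1.002). Without mixed-marker cells Clu was at 0.64 and Krt19 at 0.9986, neither past the limit, and when Cldn10 had only to exceed Cldn16 the ratios of Clu and Krt19 were 0.37 and 0.27 and that of S100a6 0.54. At a mitochondrial limit of 25% none of the 4 reached the limit of 1, with S100a6 at 0.92, Tnfrsf12a at 0.88, Krt19 at 0.70 and Clu at 0.68. Lcn2, the injury marker lipocalin 2, was at 909 and 1672 CPM (0.88), short of the limit, and at equal depth was seen in 48.2% and 81.2% of members.

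**Figure D3:**
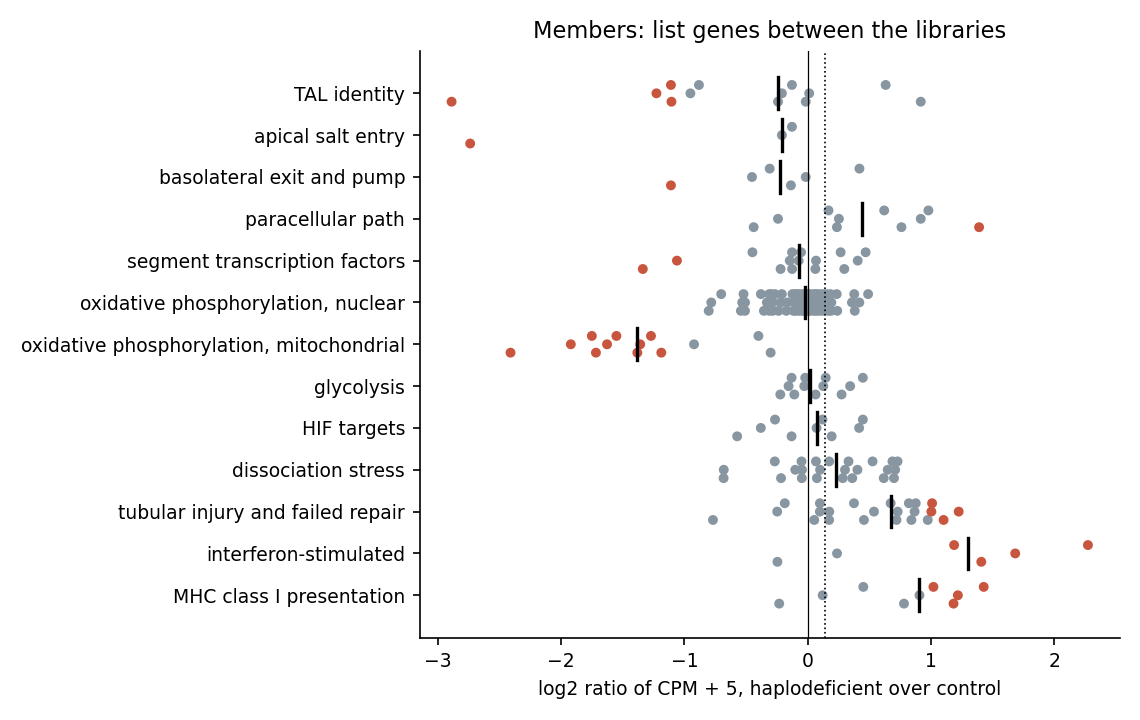
Log2 ratio of CPM + 5 in members, haplodeficient over control, for every eligible gene of 13 lists; red points passed the size rule, black bars are list medians and the dotted line is the median of all eligible genes, 0.14. Interferon-stimulated and MHC class I genes lie to the right (medians 1.30 and 0.91) and mitochondrially encoded genes to the left (-1.38); the identity, apical and paracellular lists include Slc12a1 or Cldn10, which the rule used.

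Genes of energy supply split by genome. The TAL is rich in mitochondria, which power its sodium pump. Of 13 mitochondrially encoded subunits of oxidative phosphorylation 10 were called lower, with a list median of -1.38, and mt-Nd3, a complex I subunit, stood at 6091 and 1142 CPM (log2 ratio -2.41). Of 75 nuclear-encoded subunits none was called, with a median of -0.02 and a range from -0.80 to 0.49. The lower mitochondrial share was seen in all retained cells as well as in members, and its part in these values was not tested. On nuclear CPM the mitochondrial median was -1.57.

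No gene of the oxygen-response lists was called, which covers 9 eligible HIF targets (median 0.07) and 12 glycolysis genes (0.02). Nor was any of 24 genes of dissociation stress (0.23). Egln3, the targeted gene, was near the limit of detection in members, with 3 UMIs (0.654 CPM, 0.135 to 1.91) in the control library and 8 UMIs (3.58 CPM, 1.54 to 7.05) in the haplodeficient library. In endothelial cells, where the Cre acts, it was at 11.8 CPM (9.57 to 14.5) and 13.5 CPM (11.4 to 15.9), so these counts do not show a lower level in the library labelled haplodeficient. A 3′ count can also include transcripts of a recombined allele, so it checks the label poorly.

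Of all eligible genes, the 12 furthest below 0 in log2 ratio were Kap (-3.83), Abca13 (-3.00), Egf, Slc9a3, mt-Nd3, Sgcz (-2.15), Lpl (-2.02), mt-Nd2, Slc27a2 (-1.79), Akr1c21 (-1.79), mt-Co3 and Cacnb4 (-1.73). Kap, Slc27a2 and Akr1c21 are genes of the proximal tubule. Kap was seen in 255 control and 10 haplodeficient members, and 94.2% of its haplodeficient UMIs came from 1 cell. It was still called lower, at -3.50, when mixed-marker cells were left out. Without mixed-marker cells Slc27a2 was at -1.10 (13.0 and 3.41 CPM) and Akr1c21 at -1.46 (10.4 and 0.569 CPM), both under the minimum level for a call. Abca13, a large transporter listed here among the distal convoluted tubule markers, was at 192 and 19.7 CPM. Lpl, lipoprotein lipase, was at 235 and 54.1 CPM. Cacnb4, a calcium channel subunit, was at 218 and 62.1 CPM. The values of Abca13, Lpl and Cacnb4 without mixed-marker cells were -3.27, -1.97 and -1.73.

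The 12 furthest above 0 included Spink8 (2.52), Tagln (2.37), Ifitm3, Acta2 (2.15), Rpl29 (2.06), Car15 (1.91), Isg15, Frmpd4 (1.67), Meis2 (1.56), Fxyd4 (1.51) and Vim (1.48). Tagln and Acta2 are genes of smooth muscle, and without mixed-marker cells their log2 ratios were -0.01 and -0.50. Spink8 was carried by 17 and 12 members, and its ratio was -0.03 under the thinned rule. Vim, an intermediate filament of mesenchyme and injured epithelium, was at 0.68 without mixed-marker cells. Fxyd4 was at 0.32 under the thinned rule and under the minimum level for a call without mixed-marker cells. Meis2 was at 0.97 with Cldn10 only above Cldn16. Car15, a membrane-anchored carbonic anhydrase, was at 207 and 788 CPM. Rpl29, a ribosomal protein, was at 113 and 488 CPM.

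The 5 genes compared here had the same sign of difference in neighbouring classes. Egf had log2 ratios of -1.55 in cells with both claudins, -2.33 in cells with Cldn16 alone and -2.80 in distal convoluted tubule (DCT) cells, against -2.89 in members. Slc9a3 had -1.55, -1.67 and -1.29 against -2.74. Umod had -0.59, -1.13 and -1.83 against -1.11. Ifitm3 had 1.71, 1.26 and 1.83 against 2.27, and Isg15 had 1.35, 0.26 and 1.67 against 1.68. All of these classes came from the same pair of libraries, and whether the ratios differ between classes was not tested.

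**Figure D4:**
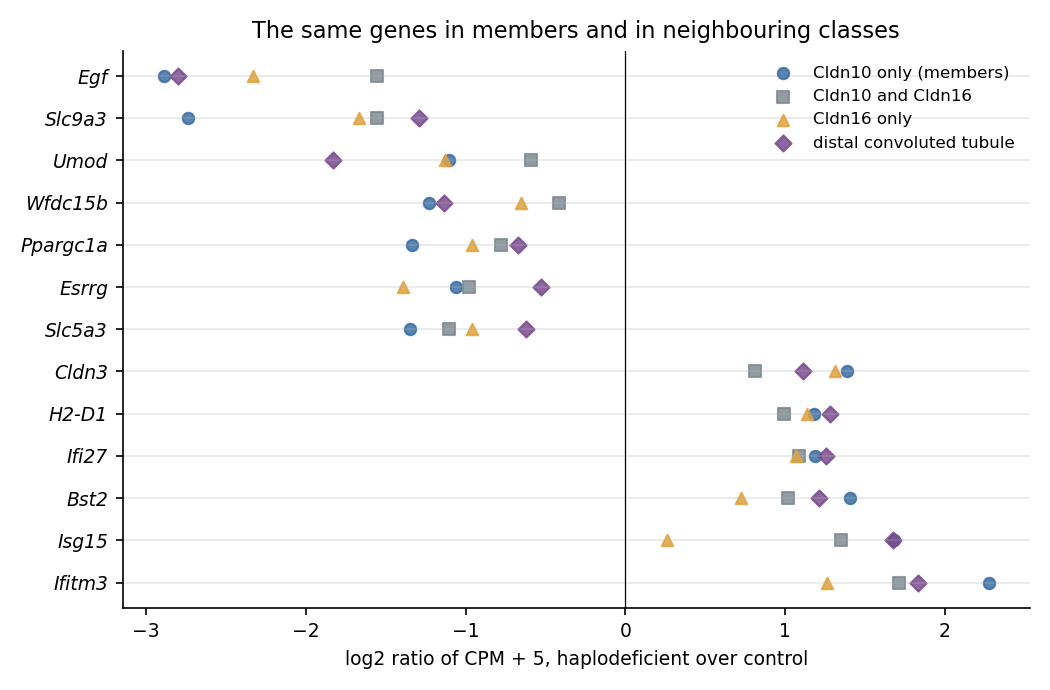
Log2 ratio of CPM + 5, haplodeficient over control, of 13 genes in members (circles), TAL cells with both claudins (squares), TAL cells with Cldn16 alone (triangles) and DCT cells (diamonds). Every marker lies on the same side of 0 as the members' circle, with Egf at -2.89 in members and -1.55 in cells with both claudins.

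Members were compared with Cldn16-positive, Cldn10-negative TAL cells across the libraries, in a model of 6 summed profiles (members, Cldn16-positive cells and DCT cells, each in both libraries) with the library as a block and 2 residual degrees of freedom per gene before pooling. Of 12410 genes tested by edgeR's quasi-likelihood test, 118 (0.951%) were higher in members and 87 (0.701%) lower at an adjusted p under 0.05. Without the genes of the rule these were 117 and 85. When cells were thinned to 2000 UMIs before the rule, 17 and 13 passed, of which 12 and 12 were among these 117 and 85. Without the block 1 and 1 passed, and none of the 117 or the 85 was among them.

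The higher genes that held under every rule for members that was tried were Ptger3, Irx1 and Pla2g7. Ptger3 was at 330.5 CPM in members and 64.7 in Cldn16-positive cells of the control library, and at 177 and 30.4 CPM in the haplodeficient library, a log2 fold change of 2.41 ± 0.26 (SE; edgeR adjusted p = 0.0050). Irx1, a homeobox factor of nephron patterning, was at 112 and 20.6 CPM in control cells and 139 and 25.9 CPM in haplodeficient cells (2.43 ± 0.22, edgeR adjusted p = 0.0018). Its neighbour Irx2 had a log2 fold change of 2.33 (edgeR adjusted p = 0.0050, and 0.069 under the thinned rule). Pla2g7, which inactivates platelet-activating factor, was at 73.1 against 2.94 CPM, with 3 UMIs in the Cldn16-positive cells, and had 217 against 15 UMIs in the haplodeficient library. Members were the higher class for each of these genes in both libraries.

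The lower genes that held under every rule were Foxq1, Greb1, Id3, Itpr2, Kcnj10, Lrmda, Tmem52b and Zfp503. Kcnj10, the basolateral potassium channel Kir4.1, was at 19.2 CPM in members and 153 in Cldn16-positive cells of the control library, and at 9.39 and 87.7 CPM in the haplodeficient library (log2 fold change -3.03 ± 0.18, edgeR adjusted p = 0.00035). Foxq1, a forkhead factor, was at 12.7 and 157 CPM and at 13.9 and 224 CPM (-3.76). Tmem52b was at 49.5 and 699 CPM and at 31.7 and 495 CPM (-3.86).

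Hormone and ion-handling genes separated the classes in part. Lower in members were Pth1r (log2 fold change -1.90), Casr (-1.14), Egf (-1.22), Kcnj16 (-0.59) and the kinase Wnk1 (-1.77), each with an edgeR adjusted p under 0.05; the calls on Casr, Egf and Kcnj16 were lost when cells were thinned to 2000 UMIs first (edgeR adjusted p = 0.95, 0.63 and 0.89). Umod (0.20, edgeR adjusted p = 0.65), Kcnj1 (0.04, adjusted p = 0.95) and Cldn19 (-0.30, adjusted p = 0.56) did not pass. Of 13 basolateral genes tested 3 were lower and none higher, and of 12 paracellular genes outside the rule none passed. The injury genes S100a6 (1.07) and Anxa2 (0.88) were higher in members, and Sox9 (-1.93), a repair-linked transcription factor, was lower. None of the genes called in this paragraph held under every rule for members, and with Cldn10 only above Cldn16 the adjusted p of Pth1r was 0.068 by edgeR.

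The UMIs of most genes with large fold changes upward lay in mixed-marker cells. These held 26.3% of all control members' UMIs, but over 50% of the control UMIs of 65 of the 117 higher genes, and of 13 of the 15 with the largest change. Those 15 were Fst, Slc13a1, Eprn, Sod3, Aqp1, Cyp2j5, Aldh8a1, Ugt2b37, Cubn, Slc47a1, Cyp2e1, Gm40999, Cda, Cpn1 and Slc17a3, many of them genes of the proximal tubule or the descending thin limb. Eprn was among the exceptions, at 237 against 17.7 CPM in control cells and 351 against 4.50 CPM in haplodeficient cells (log2 fold change 4.65), with 14.5% and 7.26% of its UMIs in mixed-marker cells. Without these cells 45 of the 117 higher and 67 of the 85 lower genes were still called. The 15 largest downward changes were those of Gkn3, Tmem52b, Foxq1, Greb1, Nrxn3, Kcnj10, Nsg2, Kctd8, Scarf2, B830017H08Rik, Zfp503, Car15, Col5a2, Tspan18 and Rtl4, of which 14 were still called without mixed-marker cells.

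**Figure D5:**
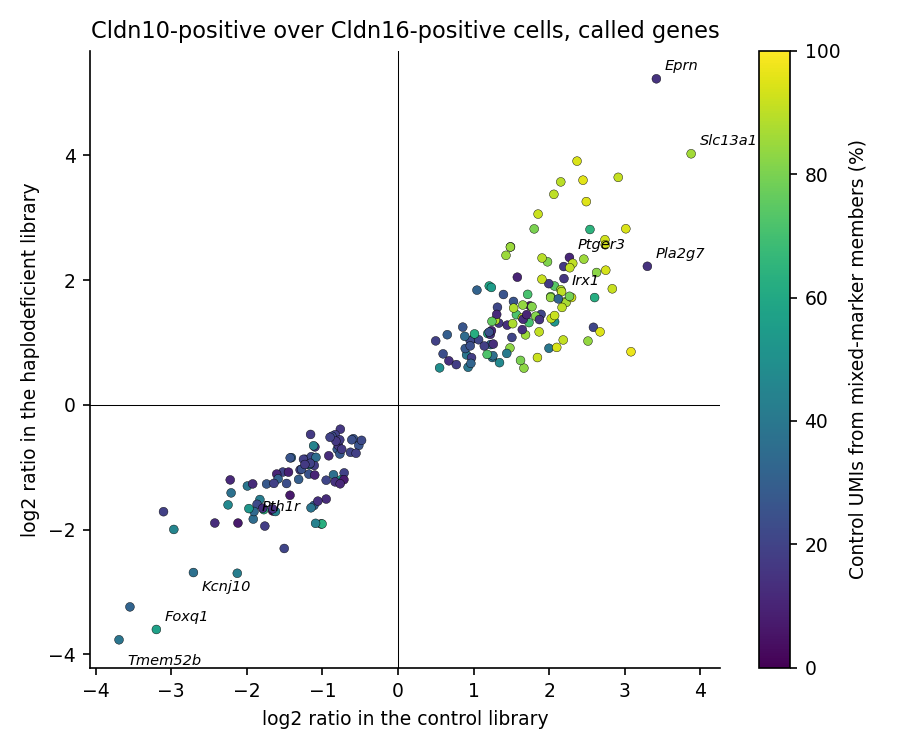
Log2 ratio of CPM + 5 of members over Cldn16-positive TAL cells in the control library (horizontal) and the haplodeficient library (vertical) for the 117 higher and 85 lower genes; colour gives the share of control UMIs held by mixed-marker members. Ptger3, Irx1, Pla2g7 and Eprn are dark, whereas Slc13a1 is light.

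Against DCT cells, the next segment, which takes up salt through Slc12a3, 752 genes (6.06%) were higher in members and 769 (6.2%) lower in the same fit. Umod was higher by a log2 fold change of 3.65 ± 0.17, Cldn19 by 2.66, Casr by 1.61 and Egf by 2.04, and Slc9a3 by 4.67 (the largest edgeR adjusted p of these 5 genes was 0.00012). The largest increases were those of Tmem207, Gm14002, Ndst4, Gm20554, Pappa2, Eprn, Irx1 and Sgcz. Irx1 was at 112 CPM in members and 2.41 in DCT cells of the control library, and at 139 and 1.17 CPM in the haplodeficient library (5.91 ± 0.23).

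The largest decreases against DCT cells were those of Gm27239, Calb1, Pvalb, Fgf13, Pgam2, D430041D05Rik, Slitrk4 and Maob. Of 16 genes of calcium and magnesium handling 12 were lower and 2 higher, with a list median of -1.45 against -0.01 over all genes. Calb1, a calcium buffer, was at 15.5 CPM in members and 1065.5 in DCT cells of the control library, and at 4.02 and 643 CPM in the haplodeficient library (-6.40). Trpm6, the apical magnesium channel, had a log2 fold change of -2.31, and Slc8a1, the sodium-calcium exchanger, of -4.43. Kcnj10 (-3.30) and Kcnj16 (-0.51) were lower in members than in DCT cells, as they were against Cldn16-positive cells. All 8 DCT markers tested, by which that segment is recognised, were lower.

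Members varied among themselves. In cells thinned to 2000 UMIs the ratio of variance to mean had medians of 1.14 (control) and 1.13 (haplodeficient) over 1266 genes. Spp1, which encodes osteopontin, reached 31.1 and 18.02, Umod 17.7 and 10.9, Clu 6.71 and 10.3, and S100a6 6.26 and 10.7. Spp1 ran from 3 UMIs at the 10th percentile to 57.6 at the 90th in the control library and from 10.6 to 79 in the haplodeficient library. Across thinned cells, Spearman's rho between Umod and Egf was 0.65 in 338 control members and 0.33 in 207 haplodeficient members, and between Umod and Spp1 it was -0.27 and 0.24. Cells of a library share their depth limit and their source, so these values describe the libraries only.

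Small groups of members carried genes of special states. Pappa2, a protease made by macula densa cells at the end of the limb, was seen in 9 control members (2.62%, 1.20% to 4.91%) and 20 haplodeficient members (9.26%, 5.75% to 13.9%), and the macula densa nitric oxide synthase Nos1 in 7 and 6. Both genes were in 5 and 3 members. At equal depth Pappa2 was in 0.888% and 5.80% of members, against 0.0906% of control leukocytes. Havcr1, the injury molecule KIM-1, was seen in 42 (12.2%) and 7 (3.24%) members, and in 24 and 4 once mixed-marker cells were left out. At 2000 UMIs per cell its shares were 2.66% and 1.93%, and their intervals overlapped. At least 2 genes of dividing cells were found in 10 and 9 members.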

How the data were processed

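The deposited matrices hold raw UMI counts, not normalized, which the authors obtained with Cell Ranger 4 per the file headers and on mm10 per the submitters' processing notes. The files held 32285 genes and 134190236 and 114668145 UMIs (control, haplodeficient). The extraction kits are those of the labels' protocols; hashtags were not analysed here. Coordinates were taken from GENCODE M21 on GRCm38, in which 32235 gene identifiers matched.

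Cells were rebuilt from the counts with the limits given above, since no annotation by the authors was used. Scrublet calls (expected rate 0.8% per 1000 cells) were recorded, not removed, except as an alternative. Free RNA was taken from barcodes of 1 to 100 UMIs. Mixed-marker cells had over 0.3% of UMIs from markers of other classes; this limit, and leaving out for each gene the cell with most of its UMIs, were chosen after seeing the data. Library ratios used CPM + 5 for genes averaging 50 CPM or more with 30 or more UMIs, with no test. Classes were compared with edgeR 4.0.16 (quasi-likelihood test, TMM, library block, Benjamini-Hochberg over all genes tested); DESeq2 1.42.0 was an alternative. Shares use exact Clopper-Pearson intervals. Intervals cover counting error only.

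The scripts were tested on simulated data. The members and the gene lists were chosen with earlier results of these data known. Named genes are the 12 highest and 12 lowest between libraries, the 15 and 15 against Cldn16-positive cells, the 8 and 8 against DCT cells, and members of the lists; some of these genes are not reported here. The class model pairs sums of the same library, so its block is the library itself.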

Additional observations from a re-analysis of the deposited data

How the results depend on the processing

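The difference in the share of members, haplodeficient minus control, was -1.49 percentage points. It changed sign, with intervals that include 0, to 0.31 under the rule on thinned cells and 0.12 with Cldn10 only above Cldn16. Without mixed-marker cells the difference was -1.004, and the other 7 alternatives gave values within the main interval. Against 62 genes higher and 62 lower between libraries, a mitochondrial limit of 25% gave 41 higher, Cldn10 above Cldn16 gave 26 higher, nuclear CPM 108 lower, and a minimum of 10 CPM, which tests 9239 genes, 174 and 166.

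For the lists of TAL identity, tubular injury, interferon-stimulated, MHC class I and mitochondrially encoded genes, no median changed sign. A change of sign was not assessed for the other lists. Median-of-ratios scaling shifted the ratios by a median of -0.14, more in size than the medians of HIF targets (0.07) and glycolysis genes (0.02). The median of TAL identity was -0.15 with the 25% mitochondrial limit, -0.17 under the thinned rule, -0.016 with Cldn10 above Cldn16 and -0.54 with the 10 CPM minimum. Injury genes gave 0.41 (25% limit), 0.78 (Slc12a1 of at least 10), 0.37 (Cldn10 above Cldn16), 0.49 (nuclear CPM) and 0.30 (10 CPM minimum). In that order, interferon-stimulated genes gave 1.15, 1.62, 1.11, 1.13 and 0.68, and 1.15 both under the thinned rule and with median-of-ratios scaling (1.149 and 1.151). MHC class I genes, also in that order, gave 0.79, 1.11, 0.69, 0.72 and 0.73, 0.81 without mixed-marker cells and 0.76 with median-of-ratios scaling. Mitochondrially encoded genes gave -1.01 (25% limit), -1.44 (Slc12a1), -1.43 (Cldn10 above Cldn16), -1.57 (nuclear), -1.53 (median-of-ratios), -1.59 (thinned rule), -1.32 without doublets, -1.42 without cells whose proximal tubule markers exceeded TAL markers and -1.30 without mixed-marker cells. Spink8 reversed to -0.034 under the thinned rule, and Tagln (-0.0089) and Acta2 (-0.50) without mixed-marker cells.

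Against Cldn16-positive cells (118 higher, 87 lower) the counts were 53 higher without doublets, 75 higher without cells of high proximal tubule markers, 17 and 13 under the thinned rule, 30 and 24 with Cldn10 above Cldn16, 539 and 272 with no filter on low counts and 281 and 177 in a fit of only the 4 sums compared. Rtl4 reversed to 0.12 under the thinned rule. Against DCT cells (752 and 769) they were 1134 higher with no filter and 400 and 361 with DESeq2. Without the replicate block, which here is the library, the counts were 1 and 1 against Cldn16-positive cells and 147 and 121 against DCT cells. No paired analysis was possible because each group is 1 library, for the comparison of libraries. Leaving out a library leaves no residual degrees of freedom, so it gives values without a test. The cause of these changes was not tested. Depth limits the claudin classes, and genes under 50 CPM were not compared between libraries.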
